A study of Mus musculus with 4 samples.

Results

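The 42 genes described here belong to the antioxidant defense of the cell that is built around the transcription factor NRF2. They encode NRF2 and its partners and inhibitors, the enzymes that make and use glutathione, the thioredoxins and peroxiredoxins, catalase and the superoxide dismutases, and the enzymes that supply NADPH. They were chosen by name, by a rule that uses no measured value, although earlier results of these data were known when the list was made. All 42 were found among the 53465 genes of the count table. All 42 also had enough counts to be tested, among 14682 genes tested in all.

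RNA was sequenced from MDSCs, immature cells of the myeloid lineage that build up in hosts with tumors. They were isolated with beads against Gr-1 from the spleens of male BALB/c mice, 6 weeks old at injection, that carried tumors of 4T1, a transplantable mammary carcinoma line. The cells were cultured for 6 h in control medium (control replicates 1 and 2) or with EGCG, the most abundant catechin in green tea, at 5 μg/mL (EGCG replicates 1 and 2). All 4 libraries therefore come from tumor-bearing mice of the same strain, and by their labels the groups differ in EGCG alone. By the labels 21 days passed between injection and sort, by the methods fewer, and neither source tells if replicates came from separate mice. The p-values then measure only the spread between these libraries, which may be technical.

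In resting cells NRF2 is held by KEAP1, which directs it to degradation. Oxidants and electrophiles modify KEAP1, and NRF2 then enters the nucleus, pairs with a small MAF protein and binds antioxidant response elements near its target genes, at which BACH1 competes with it. Its targets carry cystine into the cell, make glutathione, reduce quinones, degrade heme and restore thioredoxin. In myeloid cells these systems stand beside the phagocyte NADPH oxidase, which makes superoxide from the same NADPH that the reductases use. Messenger RNA is only 1 level of this control, since NRF2 is regulated mostly as a protein, and protein and enzyme activity were not measured in these libraries.

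The totals ran from 17767318 to 18390385 counts per library. The defining markers of Gr-1+ cells were present throughout: Ly6g lay between 943 and 1199.7 CPM (counts relative to the library total, after TMM scaling between libraries), and S100a8 was at 14461 and 18163 CPM with control and at 22838 and 19477 CPM with EGCG, so that its groups did not overlap. Of the 12 markers of this list 3 lay higher with EGCG without overlap (Itgam, S100a8 and Mmp9) and 1 lower (Ltf). Over all tested genes 21.5% lay higher and 21.2% lower without overlap, so that these counts say nothing particular of the list. The part of this list in the values below was not tested. Replicates differed nearly as much as groups did. Over all tested genes the root mean square difference in log2 CPM was 0.32 between the control libraries and 0.34 between the EGCG libraries, against 0.34 to 0.39 between a control and an EGCG library. Over the 42 antioxidant genes it was 0.20 within the control group, 0.17 within the EGCG group, and 0.15 to 0.24 across the groups. The share of all counts that fell on the 42 genes was 1.13% and 1.15% for the control replicates, and 1.17% and 1.19% for the EGCG replicates.

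Levels of different genes were compared per length, as RPKM (CPM per kilobase of exon). The antioxidant genes were mostly well expressed: 15 of 42 lay above the 90th percentile of all tested genes, and 5 lay below the median. The highest was Prdx5, a peroxiredoxin of mitochondria, peroxisomes and cytosol, at 625 and 716 RPKM in the control replicates and 784 and 742 RPKM with EGCG. Gpx1, the cytosolic glutathione peroxidase, came next at 548 to 637 RPKM over the 4 libraries, followed by the pentose phosphate enzyme gene Taldo1 at 511 to 605 RPKM. Gpx1 lay above Taldo1 in each of the 4 libraries, although their ranges over the libraries overlapped. Txn1, the cytosolic thioredoxin, ran from 441 to 532 RPKM, while its mitochondrial counterpart Txn2 ran from 8.10 to 8.69 RPKM. The libraries thus held far more RNA of the cytosolic than of the mitochondrial system, and the reductases showed the same order, with Txnrd1 at 31.4 to 40.5 RPKM and Txnrd2 at 0.750 to 0.933 RPKM. At the lower end stood Me1, the cytosolic malic enzyme, at 0.258 to 0.451 RPKM. Of its sequence, counted in words of 31 bases, 36.9% is shared with other transcripts, so that its level is uncertain. Of the enzymes that make NADPH from sugar phosphates, G6pdx ran from 167 to 180 RPKM and Pgd from 233 to 256 RPKM. The pentose phosphate genes thus stood far above Me1 in every library, although 23.6% of the G6pdx sequence is shared as well.

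**Figure D1:**
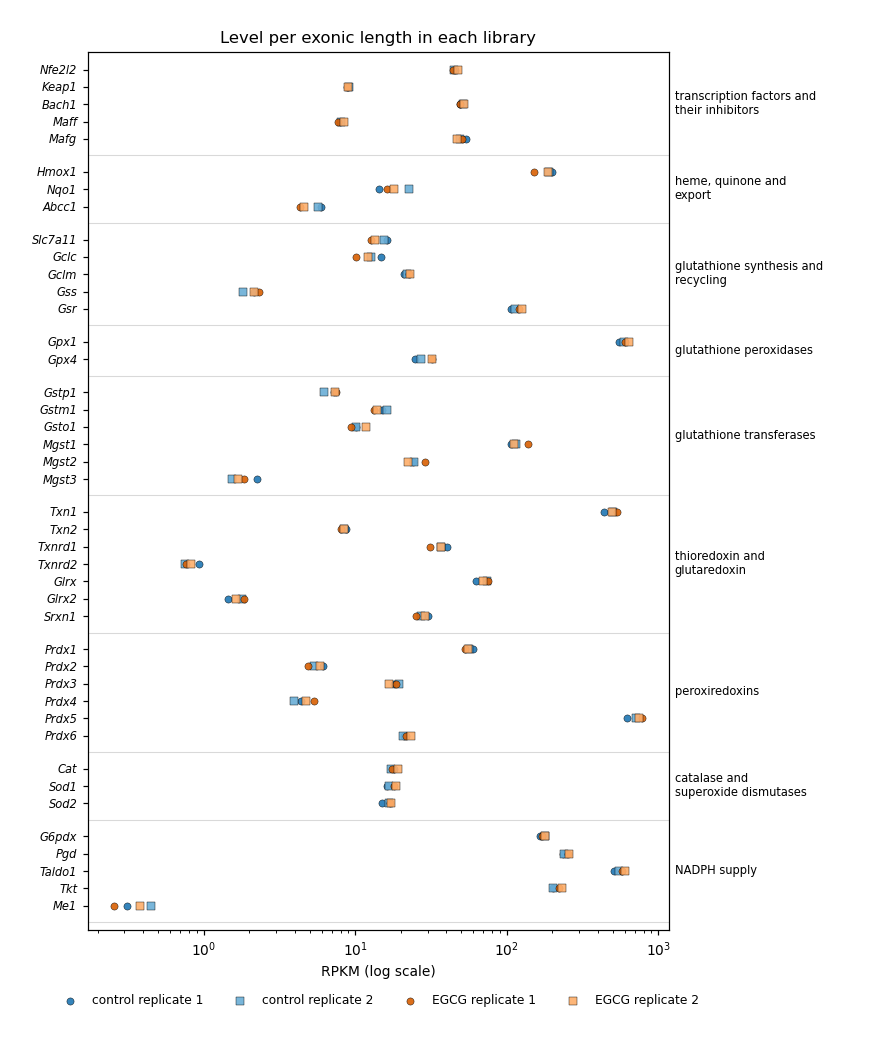
Level per exonic length (RPKM, log scale) of the 42 antioxidant genes in the 4 libraries, ordered by role. Each symbol is a library; Prdx5 is the highest at 625 to 784 RPKM and Me1 the lowest at 0.258 to 0.451 RPKM, and for most genes the 4 symbols lie close together.

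Whether 6 h of EGCG altered the RNA of these genes was tested with edgeR (quasi-likelihood test, Benjamini-Hochberg adjustment over the 14682 genes). None of the 42 genes had an adjusted p under 0.05 (0 of 42, against 0.150% of all tested genes, of which 0.136% on the lower and 0.0136% on the higher side). Counted at an unadjusted p under 0.05, there were 7 of 42 (16.7%, against 12.2% of all tested genes), of which 5 were lower with EGCG (11.9%, against 7.02%) and 2 were higher (4.76%, against 5.22%). This count rested on single libraries: leaving out control replicate 1 gave 4 (against 6.52% of all tested genes), and leaving out control replicate 2 gave 12 (against 14.4%). Leaving out EGCG replicate 1 gave 4 (against 10.3%), and EGCG replicate 2 gave 9 (against 10.4%). In such fits 1 group holds a single library, which is assumed to vary as the other group does, and the p-values given below for a library left out rest on that assumption. DESeq2 called 1 member, Abcc1, among 64 of 27490 genes called in all (49 lower and 15 higher with EGCG). Log2 fold changes were above 0 for 24 of the 42 genes (57.1%, against 50.6% of all tested genes). The median log2 fold change of the 42 genes was 0.04, beside 0.0031 over all tested genes, and without EGCG replicate 2 it was -0.0079. The EGCG libraries lay entirely below the control libraries for 7 genes (16.7%, against 21.2% of all tested genes) and entirely above them for 13 of 42 (against 21.5%). In bulk RNA, fewer cells of a type and less RNA per cell cannot be told apart.

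How large a difference these libraries leave room for was given by the 95% interval of each fold change. Like the p-values, these intervals rest on the spread between these libraries, which may be technical, and they do not bound differences between mice. For 39 of the 42 genes the whole interval lay within 1.5-fold either way, and for 41 within 2-fold. The exception was Me1, with 18 to 31 counts per library and an interval of 0.484-fold to 1.44-fold. The other intervals that reached beyond 1.5-fold belonged to Mgst3, from 0.600-fold to 1.47-fold with 30 to 45 counts per library, and Prdx4, from 0.965-fold to 1.51-fold. A p above the threshold does not show that a gene was unaffected.

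The regulators came first in the order of roles, and they were the most even of all. Nfe2l2 (ENSMUSG00000015839, chromosome 2 of GRCm38 from 75675513 to 75704641), which encodes NRF2, stood at 173 and 171 CPM in the control libraries and at 168 and 180.3 CPM in the EGCG libraries. The groups overlapped, with EGCG replicates 1 and 2 the lowest and the highest of the 4. Its log2 fold change was 0.02 (standard error 0.07, adjusted p of 0.961 by edgeR), with an interval of 0.905-fold to 1.13-fold. Keap1, which encodes the inhibitor that binds NRF2, was at 41.8 and 42.4 CPM in the control replicates, and at 41.6 and 41.9 CPM with EGCG. Its log2 fold change was -0.01 (standard error 0.09, adjusted p of 0.972 by edgeR), and 9.02% of its sequence, counted in words of 31 bases, is shared with an antisense transcript. Bach1, the repressor that competes at antioxidant response elements, had a log2 fold change of 0.0072, and Maff, a small MAF partner, one of -0.00011. Mafg, another small MAF gene, had the smallest p of the 5 regulators. It was at 300.1 and 274 CPM in the control libraries and at 283 and 263 CPM in the EGCG libraries, so that the groups overlapped, and its log2 fold change was -0.07 (standard error 0.08, adjusted p of 0.771 by edgeR). For all 5 regulators, then, the control and EGCG libraries overlapped.

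The antioxidant response element was searched for in the promoters of these genes. They were chosen by name and include targets of NRF2, which binds this element. A raised share among them may therefore be built into the choice. Promoters from RefSeq (GRCm38.p6, from 250 bases before to 50 bases after each annotated start) were found for 37 of the 42 genes, and for Hmox1, Abcc1, Gclc, Gsr and Prdx6 none was matched. The core of the element, TGACNNNGC on either strand, stood in the promoters of 12 of these 37 genes (32.4%), against 14.0% of all 27025 genes in the table. Some genes have several promoters, and the table held 52 for these 37 genes and 32851 for all genes. Counted per promoter, the core stood in 12 of 52 (23.1%), against 12.4% of all promoters. The 12 were Nfe2l2, Maff, Mafg, Gclm, Mgst1, Txnrd1, Srxn1, Prdx1, Sod1, G6pdx, Pgd and Me1. The spelling TGACTCAGC, which includes the letters of an AP-1 site, occurred in Prdx1 and Me1, and in 0.503% of all genes. A match is a description of letters, not of binding, and elements outside these windows were not searched. The sequences below show 6 of these places, chosen to cover the regulators, glutathione synthesis, thioredoxin, peroxiredoxins and NADPH supply. Each is read 5′ to 3′ on the strand that spells the core, and the capitals mark the core. Their positions are chr2:75704885-75704913 on the minus strand for Nfe2l2, chr3:122245413-122245441 on the minus strand for Gclm, chr10:82859104-82859132 on the minus strand for Txnrd1, chr4:116685456-116685484 on the minus strand for Prdx1, chrX:74428919-74428947 on the plus strand for G6pdx, and chr9:86695902-86695930 on the minus strand for Me1.
Nfe2l2: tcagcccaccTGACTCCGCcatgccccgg
Gclm: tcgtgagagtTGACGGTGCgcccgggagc
Txnrd1: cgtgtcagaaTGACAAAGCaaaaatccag
Prdx1: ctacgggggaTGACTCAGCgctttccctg
G6pdx: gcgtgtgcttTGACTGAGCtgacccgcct
Me1: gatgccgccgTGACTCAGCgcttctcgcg
The genes with this core did not share a direction in the counts: Txnrd1 and Prdx1 lay lower with EGCG, Gclm, Sod1 and Pgd lay higher, each without overlap of the groups, and the other 7 overlapped. Over all tested genes 21.2% lay lower and 21.5% higher without overlap, so that these counts say nothing particular of the core.

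Heme breakdown, quinone reduction and export are represented by 3 genes, all with lower mean values in the EGCG libraries and none past the threshold. Abcc1 (ENSMUSG00000023088, chromosome 16 from 14361558 to 14475737) encodes a pump that exports glutathione conjugates, and it had the smallest p of the 42 genes. It was at 89.8 and 85.4 CPM in the control libraries and at 65.5 and 69.1 CPM in the EGCG libraries. Both EGCG libraries lay well below both control libraries. The log2 fold change was -0.38 (standard error 0.08), an interval of 0.683-fold to 0.864-fold, and the adjusted p was 0.0730 by edgeR's quasi-likelihood test. Abcc1 stood close to the threshold: its adjusted p was 0.0158 with library size only, 0.0405 with robust estimation and 0.0401 with DESeq2, and over the 10 alternatives with all 4 libraries it ran from 0.0158 to 0.593. Leaving out control replicate 2 gave an adjusted p of 0.0144, and leaving out EGCG replicate 2 gave 0.0221, whereas leaving out control replicate 1 gave 0.172 and leaving out EGCG replicate 1 gave 0.145. With a correction for exonic length its log2 fold change was -0.24 and its adjusted p 0.324 by edgeR.

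Hmox1 (ENSMUSG00000005413, chromosome 8 from 75093621 to 75100589), the gene of heme oxygenase 1, was at 346 and 334 CPM in the control libraries. It was at 264 CPM in EGCG replicate 1 and 327 CPM in EGCG replicate 2. EGCG replicate 1 thus stood apart, while EGCG replicate 2 lay just under the lower control library. The log2 fold change was -0.20 (standard error 0.09, adjusted p of 0.405 by edgeR). It was -0.05 without EGCG replicate 1 (adjusted p of 0.922) and -0.36 without EGCG replicate 2 (adjusted p of 0.0359), so that the value differed with the EGCG library that was kept. Splenic macrophages also express Hmox1 strongly, although the cells were sorted on Gr-1, after which the paper counted most CD45+ cells as MDSCs. All 8 markers of a macrophage list were detected. Their summed level was 408 and 404 CPM in the control libraries and 315 and 337 CPM in the EGCG libraries. Of the 8, 5 lay lower with EGCG without overlap (against 21.2% of all tested genes). The sum was lowest in EGCG replicate 1, as was Hmox1, and its part in the Hmox1 values was not tested. An endothelial list moved likewise, with summed levels of 131 and 140 CPM for control and 103 and 111 CPM for EGCG, and 5 of its 6 markers lower without overlap (against 21.2% of all tested genes). Among the other marker lists, those of monocytes (3 of 6 markers lower and 0 higher without overlap), of platelets (2 lower and 0 higher of 6) and of basophils, mast cells and eosinophils together also had lower sums in both EGCG libraries. In the last of these the eosinophil markers Prg2, Epx and Siglecf lay lower, Fcer1a lay higher, and Mcpt8, Prss34 and Cpa3 overlapped. The B cell list had higher sums (1753 and 1848 CPM against 1948 and 2004 CPM, 3 of 6 markers higher and 0 lower). The T and NK cell list had higher sums by a narrow margin (90.7 and 104.1 CPM against 104.3 and 107.7 CPM) that came mostly from Cd3d, while 2 of its 8 markers, Cd8a and Ncr1, lay lower. The sums of the erythroid, dendritic cell, and epithelial and 4T1 tumor cell lists overlapped between the groups. Without overlap, 4 of 9 erythroid markers lay higher and 1 lower. The epithelial and tumor list had 2 of 6 markers higher and 1 lower, the dendritic list 0 of 6 higher and 1 lower. All these counts stand beside 21.5% higher and 21.2% lower without overlap over all tested genes. The part of all these lists in the values of Hmox1, Abcc1, Slc7a11 and Gclc was not tested. Nqo1, the quinone reductase gene often used to read out NRF2, was at 22.5 and 35.4 CPM in the control libraries and at 25.0 and 27.9 CPM in the EGCG libraries. The EGCG libraries fell between the control libraries, and the log2 fold change was -0.13 (standard error 0.16), or 0.24 without control replicate 2.

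Glutathione synthesis begins with cystine uptake. Slc7a11 (ENSMUSG00000027737, chromosome 3 from 49892526 to 50443614) encodes the cystine and glutamate exchanger, and it was at 224 and 217 CPM in the control libraries and at 178 and 187 CPM in the EGCG libraries. The groups lay apart by more than the replicates of either group differed. Its log2 fold change was -0.27 (standard error 0.07, interval 0.742-fold to 0.923-fold), with an adjusted p of 0.162 by edgeR that ran from 0.0548 to 0.652 over the alternatives. With the length correction the log2 fold change was -0.14. Slc7a11 has no match to TGACNNNGC in its promoter window. It has 2 matches, on opposite strands, to TGATGNAA, the core of the amino acid response element that ATF4 binds with its partners. Slc7a11 was the only member with such a match (1 of 37 genes, or 2.70%, against 4.51% of all genes), and this core was searched after the values had been seen. The stretch from 120 to 21 bases before its start (chr3:50443634-50443733, minus strand, GRCm38.p6) is shown with both matches in capitals.
Slc7a11: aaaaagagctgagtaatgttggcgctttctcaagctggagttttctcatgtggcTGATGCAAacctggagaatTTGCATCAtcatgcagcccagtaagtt
The second match reads TGATGCAA on the other strand.

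Gclc encodes the catalytic subunit and Gclm the modifier subunit of glutamate-cysteine ligase, the rate-limiting enzyme of glutathione synthesis. Gclc (ENSMUSG00000032350, chromosome 9 from 77754535 to 77794485) was at 56.1 and 47.8 CPM in the control libraries and at 38.4 and 45.5 CPM in the EGCG libraries. Control replicate 2 and EGCG replicate 2 lay close to each other, and the remaining libraries lay farther apart. The log2 fold change was -0.31 (standard error 0.11, adjusted p of 0.265 by edgeR), and it was -0.32 with the length correction. Without control replicate 2 the adjusted p was 0.0339 and without EGCG replicate 2 it was 0.0409, with log2 fold changes of -0.42 and -0.44. The value was -0.18 when control replicate 1 was left out (adjusted p of 0.877) and -0.19 when EGCG replicate 1 was (adjusted p of 0.638). Gclm was at 133 and 138 CPM in the control libraries and at 142 and 144 CPM in the EGCG libraries, a log2 fold change of 0.08 (standard error 0.07). The subunit genes of this enzyme therefore had fold changes of opposite sign, and a test of the difference between them was not made. Gss, which completes glutathione, had a log2 fold change of 0.16 (standard error 0.14), which ran from 0.051 without control replicate 2 to 0.29 without control replicate 1. The value of Gsr, which reduces oxidized glutathione with NADPH, was 0.15 (standard error 0.08, adjusted p of 0.434 by edgeR). For Gsr both EGCG libraries, at 329 and 349 CPM, lay above both control libraries, at 296 and 314 CPM.

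**Figure D2:**
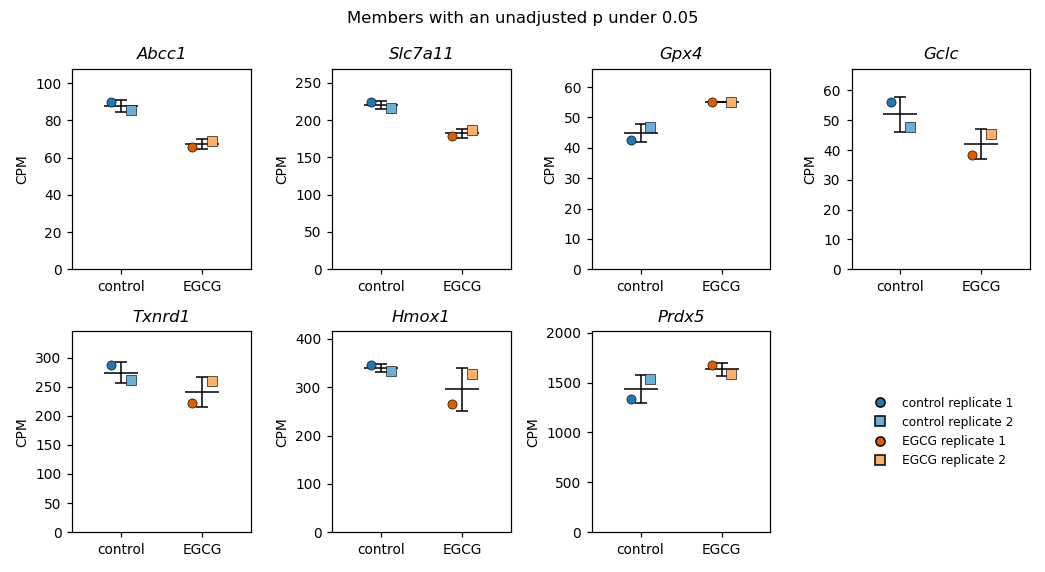
Level (CPM, axes from 0) of the 7 antioxidant genes with an unadjusted p under 0.05. Points are libraries, horizontal bars the mean of 2 libraries and error bars the SD. Abcc1 and Slc7a11 (lower with EGCG) and Gpx4 (higher) separate by group by more than their replicates differ. In Hmox1 and Txnrd1 EGCG replicate 2 lies close to control replicate 2.

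Both glutathione peroxidase genes had higher values with EGCG in every library. Gpx4 (ENSMUSG00000075706, chromosome 10 from 80047166 to 80056439) encodes the enzyme that reduces lipid hydroperoxides in membranes. It was at 42.7 and 47.0 CPM in the control libraries and at 55.1 and 55.0 CPM in the EGCG libraries. The EGCG libraries nearly coincided, above both control libraries. The log2 fold change was 0.30 (standard error 0.09, interval 1.08-fold to 1.40-fold), the highest of the 42 genes, with an adjusted p of 0.212 by edgeR that ran from 0.174 to 0.678 over the alternatives. Of its sequence 38.9% is shared with other transcripts, mostly the pseudogene Gpx4-ps2, where the counting could have split reads. Gpx1 was at 789 and 859 CPM in the control libraries and at 868 and 917 CPM in the EGCG libraries, and its log2 fold change was 0.12 (standard error 0.08), or 0.060 without control replicate 1.

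The glutathione transferases attach glutathione to electrophiles, and their 6 genes had log2 fold changes from -0.20 (Gstm1) to 0.17 (Mgst1). Gstm1 had the smallest p of the 6, with 22.1 and 24.0 CPM in control and 19.7 and 20.4 CPM in EGCG replicates. The groups did not overlap, and the adjusted p was 0.486 by edgeR (standard error 0.11). For Gstp1 the values were 11.2 and 9.57 CPM in control and 11.6 and 11.3 CPM in EGCG replicates. These differ by no more than the control replicates do. The log2 fold change was 0.15 (standard error 0.14, adjusted p of 0.731 by edgeR), or 0.041 without control replicate 2 and 0.27 without control replicate 1. Shared sequence makes both counts uncertain: 28.8% for Gstm1 and 38.5% for Gstp1, the latter with its neighbor Gstp2, which is listed at 0 in every library. Among the microsomal transferases, Mgst1 was at 279 CPM in EGCG replicate 1 and between 214 and 233 CPM in the other libraries. Its fold change thus rested on EGCG replicate 1, with a log2 value of 0.0056 without it and 0.32 without EGCG replicate 2. Mgst2 had the same shape, at 106 CPM in EGCG replicate 1 against 82.2 to 90.5 CPM elsewhere, and its log2 fold change was -0.13 without that library.

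In the thioredoxin system, Txnrd1 (ENSMUSG00000020250, chromosome 10 from 82833951 to 82897712), the cytosolic thioredoxin reductase, was at 287 and 261 CPM in the control libraries and at 222 and 259 CPM in the EGCG libraries. EGCG replicate 2 lay just under control replicate 2, so that the separation of the groups was narrow. The log2 fold change was -0.19 (standard error 0.09, adjusted p of 0.403 by edgeR), with -0.30 when EGCG replicate 2 was left out and -0.080 when EGCG replicate 1 was. Srxn1, which repairs overoxidized peroxiredoxins, was at 84.7 and 76.2 CPM in the control libraries and at 70.5 and 81.0 CPM in the EGCG libraries, with overlap of the groups. The remaining genes of this role, Txn1, Txn2, Txnrd2, Glrx and Glrx2, had log2 fold changes from -0.08 to 0.13, and the groups overlapped in each. Without control replicate 1 the value of Txn1 was 0.043 and that of Txn2 -0.022.

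The peroxiredoxins remove hydrogen peroxide with electrons from thioredoxin or, in Prdx6, from glutathione. Of their 6 genes, 3 had log2 fold changes below 0 (Prdx1, Prdx2 and Prdx3, from -0.09 to -0.08) and 3 above it (Prdx4, Prdx5 and Prdx6, from 0.10 to 0.27). Prdx5 (ENSMUSG00000024953, chromosome 19 from 6906697 to 6910106) was at 1336 and 1532 CPM in the control libraries and at 1678 and 1586 CPM in the EGCG libraries. Control replicate 1 was the low library, and control replicate 2 lay near EGCG replicate 2. The log2 fold change was 0.19 (standard error 0.09, adjusted p of 0.407 by edgeR), or 0.10 without control replicate 1 and 0.29 without control replicate 2. Exons of Trmt112 on the other strand overlap 19.1% of its exonic bases, and with counting that ignored strand the reads there cannot be told apart. Prdx1, whose promoter holds the core shown above, was at 181 and 172 CPM in the control libraries and at 162 and 169 CPM in the EGCG libraries. The groups did not overlap, but control replicate 2 and EGCG replicate 2 were close, and the log2 fold change was -0.09 (standard error 0.07, adjusted p of 0.664 by edgeR), or -0.050 without control replicate 1 and -0.058 with EGCG replicate 1 left out. Prdx3 was at -0.00021 and Prdx6 at 0.046 without EGCG replicate 2.

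Catalase breaks down hydrogen peroxide, and the superoxide dismutases make it from superoxide. Cat was at 47.3 and 44.7 CPM in the control libraries and at 46.0 and 49.8 CPM in the EGCG libraries. The groups overlapped, and the log2 fold change was 0.06 (standard error 0.09, adjusted p of 0.848 by edgeR), or 0.00058 without EGCG replicate 2. Sod1, the cytosolic enzyme, was at 64.2 and 66.0 CPM in the control libraries and at 71.3 and 73.2 CPM in the EGCG libraries. The groups lay apart by more than their replicates differed, but the log2 fold change was small at 0.15 (standard error 0.08, adjusted p of 0.471 by edgeR). Sod2, the mitochondrial enzyme, was at 149.6 CPM in control replicate 1 and between 168 and 172 CPM in the other libraries. Its log2 fold change of 0.10 (standard error 0.08, adjusted p of 0.656 by edgeR) was 0.02 without control replicate 1, and 26.7% of its sequence is shared with other transcripts.

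The NADPH supply came last in this order. Its 4 pentose phosphate genes were among the most abundant of the 42. G6pdx, the enzyme of the committed step, was at 514 and 553 CPM in the control libraries and at 527 and 552 CPM in the EGCG libraries, with overlap, and its log2 fold change was 0.02 (standard error 0.08), which was -0.02 with library size only and -0.0060 with the length correction. Tkt, the transketolase gene, had the smallest p of this role. It was at 1494 and 1483 CPM in the control libraries and at 1622 and 1697 CPM in the EGCG libraries, a log2 fold change of 0.16 (standard error 0.08, adjusted p of 0.442 by edgeR). Pgd and Taldo1 had log2 fold changes of 0.11 and 0.14 (standard errors 0.08 and 0.08), and that of Taldo1 was 0.093 without control replicate 1. In Tkt, Pgd and Taldo1 both EGCG libraries lay above both control libraries, in G6pdx they did not, and none passed the threshold.

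**Figure D3:**
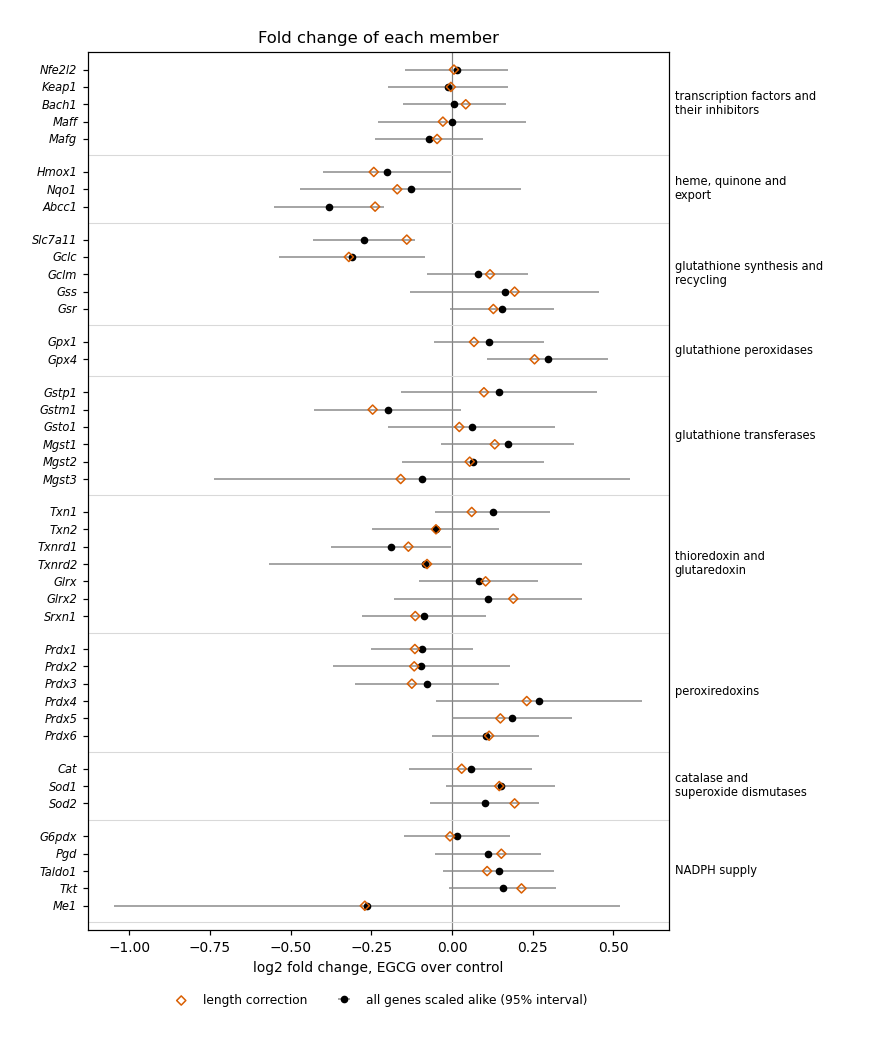
Log2 fold change (EGCG over control) of the 42 antioxidant genes by role. Black points are the values of the edgeR fit with 95% intervals and open diamonds the values with the length correction; the 5 regulators lie between -0.07 and 0.02, and Abcc1 at -0.38 moves to -0.24 with the correction.

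Over all tested genes, fold changes in these libraries tended to be lower in longer genes. Across the 14666 tested genes with a length, which are not independent replicates, the Spearman correlation of log2 fold change with exonic length was -0.286, and across the 42 antioxidant genes it was -0.123. With the length correction these values were -0.0252 and 0.141, so that the sign across the antioxidant genes turned. The points share the same 4 libraries. Abcc1 and Slc7a11 had the longest exonic sequence of the 42 genes, 15092 and 13922 bases, against a median of 3392 bases. They were also among the 3 lowest fold changes. The next longest genes went the other way: Sod2, Glrx2 and Tkt, at 10008, 8772 and 7355 bases, had log2 fold changes of 0.10, 0.11 and 0.16. Gpx4 and Prdx5, the genes with an unadjusted p under 0.05 and higher values, were short, at 1724 and 2139 bases. Hmox1 and Gclc lay lower at 1751 and 3766 bases, and their log2 fold changes with the length correction were -0.24 and -0.32. The part of length in the other values was not tested beyond this correction, under which none of the 42 genes had an adjusted p under 0.05 by edgeR.

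**Figure D4:**
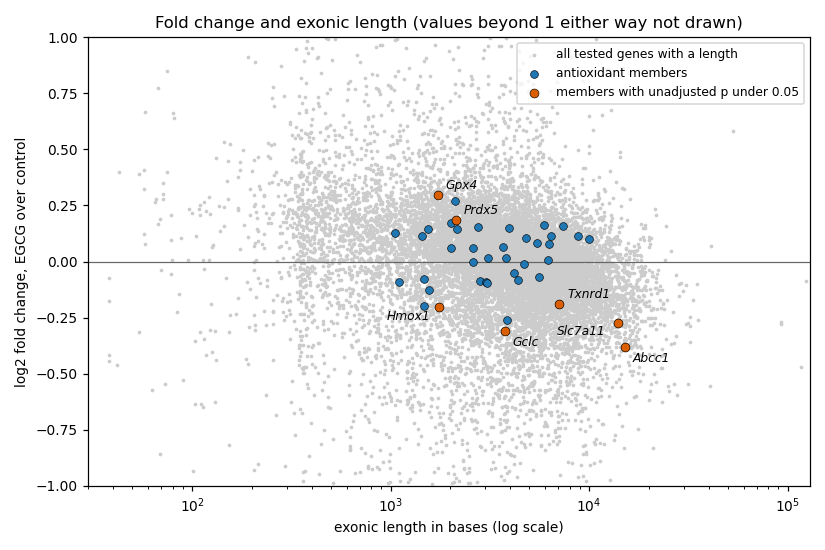
Log2 fold change (EGCG over control) against exonic length (log scale) for all tested genes with a length (gray), the antioxidant genes (blue) and those with an unadjusted p under 0.05 (orange). Abcc1 and Slc7a11 lie at the long end at -0.38 and -0.27, Gpx4 and Prdx5 among shorter genes at 0.30 and 0.19. Sod2, the next longest antioxidant gene after Slc7a11, lies at 0.10 (blue). Fold changes beyond 1 either way are not drawn.

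Of 89 genes of the same pathway that are not among the 42, 77 could be tested, and none had an adjusted p under 0.05 by edgeR (0 of 77, with 7 at an unadjusted p under 0.05, of which 6 were higher and 1 lower with EGCG, or 7.79% and 1.30% against 5.22% and 7.02% of all tested genes). DESeq2 called 0 of them as well. The lower genes with the smallest p were Abcc5, another ABC transporter gene, at a log2 fold change of -0.30 (standard error 0.09, adjusted p of 0.222 by edgeR), Ggt5, which cleaves glutathione conjugates, at -0.17 (0.08), or -0.081 without EGCG replicate 2, and Abcc3, an exporter of conjugates, at -0.20 (0.10), or -0.11 without control replicate 1. Abcc5 rested on control replicate 1, the highest library: its log2 fold change was -0.15 without it (adjusted p of 0.887 by edgeR) and -0.42 without control replicate 2 (adjusted p of 0.00982). On the higher side stood Gstp3, a glutathione transferase gene, at 0.97 (standard error 0.33) with 18 to 50 counts per library, Ftl1, the ferritin light chain gene, at 0.21 (0.08), and Pgls, an enzyme gene of the pentose phosphate pathway, at 0.20 (0.08). The adjusted p of these genes ran from 0.222 to 0.448 by edgeR.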

How the data were processed

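RNA-seq of 4 libraries (2 control, 2 EGCG) was used. The authors aligned the reads with STAR 2.6.0c to GRCm38, counted them with featureCounts 1.6.2 (Ensembl release 91 annotation, strand ignored), and deposited whole-number counts per gene, not normalized. There were 0 columns of other samples and 0 rows without a gene name.

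From the deposited counts, genes were filtered with edgeR's filterByExpr (minimum count of 10), scaled by TMM and tested with edgeR 4.0.16 (quasi-likelihood, legacy form, no block; R 4.3.3), with Benjamini-Hochberg adjustment over 14682 genes and 0.05 as the threshold. The standard error is the log2 fold change divided by the square root of F, and the 95% interval uses the test's degrees of freedom. An exact two-sided permutation of 2 against 2 libraries can give no p below 0.333.

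GENCODE M21 (GRCm38) gave positions, and exonic lengths for 53360 identifiers. Sequence shared between genes is the percent of a gene's 31-base words found in transcripts of other genes. The length correction is an offset from a loess fit (span 0.4) in each library. The alternatives were other filters and scalings, newer and robust edgeR fits, DESeq2 1.42.0, the length correction, a replicate block, and leaving out each library.

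The members and lists were chosen with earlier results of these data known. Full statistics are printed for members with an unadjusted p under 0.05, otherwise for the smallest p in a role, and for Nfe2l2, Hmox1, Cat, Sod1, Sod2 and Gstp1. Of the wider list, genes past the threshold are named, otherwise up to 3 in each direction with the smallest p. Values of further members were printed after they had been seen.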

Additional observations from a re-analysis of the deposited data

How the results depend on the processing

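The counts limit precision mainly for Me1, Mgst3 and Txnrd2, and 2 libraries a group limit it throughout. Of the 42 genes, 38 kept their direction under all 10 alternatives with all 4 libraries, and 27 also with each library left out; the cause of the other values was not tested. Over all genes, 20 were lower and 2 higher at an adjusted p under 0.05 by edgeR. These counts were 0 and 0 with no filter, 26 and 4 with 10 counts in every library, 135 and 16 with library size only, 9 and 2 with upper-quartile scaling, 25 and 6 with the newer fit, 49 and 14 with robust estimation, 49 and 15 with DESeq2, and 5 and 2 with the length correction. With a library left out they ran from 72 to 235 lower and from 5 to 119 higher. Of the antioxidant genes 1, Abcc1, was called lower with library size only, robust estimation and DESeq2, and 0 under the other alternatives with all libraries. With a library left out the number ran from 0 to 3 (2 without control replicate 2, 3 without EGCG replicate 2), and of the wider list from 0 to 1. None was called higher in any of these fits. Each fit with a library left out also called more of all tested genes, lower and higher, than the 20 and 2 of the edgeR fit with all 4 libraries. One group then holds a single library, and whether the antioxidant share differed from that of all genes was not tested. The median log2 fold change was 0.0021 when only library size was used, and between -0.0079 and 0.046 with a library left out. Antioxidant genes with EGCG libraries all below the control libraries numbered 7, and 10 to 16 with a library left out (against 33.5% to 36.9% of all tested genes), and those all above numbered 13, and 17 to 19 (against 34.2% to 37.1%); fewer libraries leave fewer values to overlap.

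Replicate numbers are shared between the groups, but deviations from the group means of same-numbered libraries correlated at 0.034 over 14682 genes, and no label pairs them. With a replicate block, 24 genes were lower and 6 higher, and 0 of the antioxidant genes were called.

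Several small log2 fold changes changed sign. With library size only, Nfe2l2 was at -0.020, Bach1 at -0.027 and G6pdx at -0.018, and with the length correction G6pdx was at -0.0060. Maff was at 0.0031 with no filter, 0.000039 with RLE scaling, 0.0070 with upper-quartile scaling and 0.0016 with DESeq2. With a library left out, the ranges that crossed 0 were -0.037 to 0.069 for Nfe2l2, -0.034 to 0.051 for Bach1, -0.063 to 0.064 for Maff, -0.13 to 0.00070 for Mafg, -0.42 to 0.24 for Nqo1, -0.10 to 0.21 for Gsto1, -0.13 to 0.24 for Mgst2, -0.34 to 0.22 for Mgst3, -0.23 to 0.089 for Txnrd2, -0.022 to 0.20 for Glrx, -0.029 to 0.28 for Glrx2, -0.19 to 0.011 for Srxn1, -0.23 to 0.035 for Prdx2, -0.032 to 0.073 for G6pdx and -0.56 to 0.024 for Me1.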

Other observations

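The wider list of antioxidant genes held further roles. A mixed group of 17 tested genes held relatives of thioredoxin and glutaredoxin, methionine sulfoxide reductases, the sestrins, the thioredoxin-binding Txnip, the copper chaperone gene Ccs and Park7. Of these 17, 14 had log2 fold changes above 0 (against 50.6% of all tested genes). The EGCG libraries lay all above the control libraries for 9 (against 21.5%) and all below them for 1 (against 21.2%). Log2 values ran from -0.20 to 0.39, with 0 past an adjusted p under 0.05 by edgeR (2 at an unadjusted p under 0.05, against 12.2% of all tested genes). Over the 77 tested genes of the wider list, 23 lay higher and 9 lower without overlap. Values of this group moved both ways without control replicate 1: Msra went from 0.18 to 0.051 and Msrb1 from 0.13 to 0.033, but Ccs from 0.14 to 0.20. Among genes of detoxification and export, 7 of 15 lay above 0 and 8 below it, and 3 lay higher and 4 lower without overlap. Of the 17 further glutathione transferase genes, 9 had enough counts to be tested. Ftl1 was at 700.3 and 709 CPM in the control libraries and at 779.8 and 849 CPM in the EGCG libraries, and 64.1% of its sequence is shared with other transcripts, so that its counts are uncertain.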
